A study of Saccharomyces cerevisiae with 21 samples.

Results

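Ribosome-protected fragments (RPFs) and their position along the gene were examined for the longest genes of Saccharomyces cerevisiae. These are 46 genes with a deposited length over 5500 nt, among 5767 genes listed in at least 1 library. In all, 57 genes passed this length, and the rule that chose the members left out 11 of them: GCN1, CDC39, FAS1, FAS2, ACC1, GLT1, IRA1, IRA2, CYR1, BLM10 and UTP20. The members measured 5510 to 14735 nt with a median of 6434 nt, against a median of 1217 nt over all listed genes. The rule used length and gene name only and no read. The members nearest to the limit were DUR12 (5510 nt) and MOT1 (5606 nt), and the nearest genes outside it were HKR1 (5411 nt) and YRF1-5 (5393 nt).

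All cells were BY4741, a haploid wild-type laboratory strain of mating type a in which HIS3, LEU2, MET15 and URA3 are deleted, so every group carries these 4 deletions. In the first experiment, 2 libraries came from cells held for 15 min in synthetic complete (SC) medium without glucose and 2 from log phase cells in SC with glucose. Both groups received cycloheximide (CHX), which stops elongating ribosomes, for 1 min before harvest. In the second experiment, a time course in SC medium without CHX pretreatment, there were 2 libraries each from log phase and from 1, 5 and 15 min of glucose starvation, and 1 each from 10, 20 and 30 min. A further library at 15 min was a matched sample with 1 min of CHX. In the third experiment, 1 library each came from cells grown in rich medium (YPD) to log phase, for 1 day and for 5 days, without pretreatment. Per the study's methods, the starved cells and the log phase cells of a starvation experiment were portions of a culture, but no source says that equal replicate numbers mark the same culture. The labels do not say whether replicates came from separate cultures, so p-values measure the spread between these libraries, which may be technical.

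Libraries held between 1862525 and 5170260 RPF reads with pretreatment. In the time course, the libraries of replicate 1 at log phase, 1, 5 and 15 min and the matched CHX library were deep (3523240 to 7896332 reads). The other time course libraries held 71816 to 135958 reads, and the YPD libraries 169545 to 652361. The pretreated libraries were made from 28mer fragments by polyadenylation and the others by linker ligation, so in log phase pretreatment and library preparation cannot be told apart between experiments. At 15 min the matched library had both CHX and linker ligation, and its values stand beside the others below. The labels name an rRNA removal kit for every library used except replicate 2 of the pretreated 15 min group. In the submitters' key, replicates 1 and 2 at 15 min of the time course belong to the opposite sequencing pools from their numbers.

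A ribosome moves codon by codon from start to stop, so on a very long gene a ribosome that has already started remains on the mRNA for longer than on a short one. The polarity score gives the mean position of a gene's reads on a scale whose 5′ limit is -1 and whose 3′ limit is 1, and it is near 0 where reads are spread evenly. In yeast the very long genes encode large scaffolds, machines and enzymes, among them the PIK-related kinases, dynein, bridge-like lipid transfer proteins, splicing and ribosome assembly factors, ubiquitin ligases and multifunctional metabolic enzymes. Glucose removal is known to stop translation initiation in yeast within minutes.

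The ends of the 3 genes below show between which points the score is read. They are the 2 members with the most reads per kb, URA2 and FKS1, and the longest member, REA1, each written 5′ to 3′ on the coding strand in RefSeq build R64. Capitals mark the start codon in the first 60 coding bases and the stop codon in the last 60. URA2 (chrX:165723-172367, minus strand) has its first bases at chrX:172308-172367 and its last at chrX:165723-165782. FKS1 (chrXII:809997-815627, plus strand) has them at chrXII:809997-810056 and chrXII:815568-815627, and REA1 (chrXII:349006-363738, minus strand) at chrXII:363679-363738 and chrXII:349006-349065. Each of these 3 genes has a single coding exon.
URA2 start: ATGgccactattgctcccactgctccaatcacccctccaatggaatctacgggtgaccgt
URA2 end: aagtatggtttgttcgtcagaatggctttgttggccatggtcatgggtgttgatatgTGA
FKS1 start: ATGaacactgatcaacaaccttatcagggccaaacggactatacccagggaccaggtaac
FKS1 end: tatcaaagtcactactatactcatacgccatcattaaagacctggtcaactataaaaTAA
REA1 start: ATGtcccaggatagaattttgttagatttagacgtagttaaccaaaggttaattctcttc
REA1 end: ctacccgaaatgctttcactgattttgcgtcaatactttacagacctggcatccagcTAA

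Most members can be told apart by a read of 28 bases. In 36 of 46 members no coding window of 28 bases occurs anywhere else in the genome on either strand or again within the gene. FKS1 and GSC2, the alternative catalytic subunits of the cell wall beta-glucan synthase, share 37 windows of 28 bases, not all in the same run. Their longest shared run, of 38 bases, is shown here because reads from it could come from either gene. It lies at chrXII:812391-812428 (plus strand, coding bases 2395 to 2432) in FKS1 and at chrVII:550715-550752 (plus strand, coding bases 2452 to 2489) in GSC2.
FKS1 and GSC2 shared run: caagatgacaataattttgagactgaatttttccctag
NUM1, which anchors dynein and mitochondria to the cell cortex, repeats itself: 2019 of its windows occur more than once, all within NUM1, between coding bases 1777 and 4137. The first copy of the 28mer below lies at chrIV:757565-757592 (plus strand), and the 28mer occurs 10 times in the gene. It is shown because reads from this stretch cannot be placed on a single copy, which bears on the polarity score of NUM1.
NUM1 repeat: atattctgaattggaaaagaaactagaa

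The 5 subtelomeric members are the exception. These are the telomeric Y' element helicase genes YRF1-3, YRF1-6 and YRF1-7 and the uncharacterised YIL177C and YJL225C, each with 2 coding exons, and over 90% of their windows occur elsewhere in the genome. The coding sequences of YRF1-3 and YRF1-7 are identical over 5580 bases, that of YRF1-6 differs from them at 2 bases, and YIL177C and YJL225C differ at 2 of 5277 bases. Their reads cannot be assigned to single genes. YRF1-3 had 101, 188, 122 and 123 reads in replicate 1 of the time course at log phase, 1, 5 and 15 min, and YIL177C had 26, 58, 37 and 38. All 5 genes are unlisted in the 4 pretreated and the 3 YPD libraries and were set to 0 there. How reads with several matches were handled in those libraries is not given in the sources used here, so this 0 says nothing of their translation, and they entered no test there.

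The members are AT-rich and unevenly spread over the genome. Their GC content ran from 34.8 to 45.3% with a median of 37.7%, against 39.8% over all 5761 genes with a value, and 38 of 46 members lay below the median of all genes. Chromosome XII holds 9 of the 46 members and 493 of the listed genes, while chromosomes I and XV hold no member. These counts leave out the 11 long genes that the rule excluded, so they do not place every gene over the limit.

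The long genes took a small share of all reads, and within it URA2 and FKS1 dominated. In the pretreated experiment the members held 1.50 and 2.29% of all RPF reads at 15 min of starvation, against 1.11 and 1.23% in log phase. Reads on URA2 and FKS1 alone were 42.8 and 43.6% of the member reads at 15 min, against 62.0 and 54.2% in log phase. Without these 2 genes the share averaged 1.07 ± 0.305% at 15 min and 0.492 ± 0.101% in log phase (SD, n = 2 each). Both starved libraries lay above both log phase libraries in the share.

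In the pretreated experiment, a typical long gene carried fewer reads per length than a typical gene in log phase and about as many after starvation. The median member had 22.1 and 35.7 CPM per kb (CPM, read counts scaled to the total of the library) at 15 min in the pretreated libraries, against 10.9 and 17.1 in log phase. These member medians run over all 46 members and count the 5 unlisted subtelomeric genes as having no reads. Each of these member medians is therefore lower than that of the 41 listed members alone. The median over all genes was 24.99 and 32.9 CPM per kb at 15 min, against 25.04 and 29.5 in log phase. In these 4 libraries 18 and 25 members at 15 min, and 7 and 10 members in log phase, lay above the median gene. Averaged over all 19 libraries the order per kb was URA2, FKS1, SEC7, SEC16, GSC2, TOM1, REA1, NUM1, UBR1 and ECM29. This order pools conditions in which levels differ: GSC2 had 1853 and 1386 CPM at 1 and 5 days in YPD but 31.7 to 123 CPM in the time course, and FKS1 had more CPM than URA2 in every time course library and in YPD log phase.

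The first question was whether ribosome occupancy of the long genes differed after 15 min without glucose in the pretreated cells. Of 41 members tested, 21 rose and 0 fell by edgeR's quasi-likelihood test with Benjamini-Hochberg adjustment over all 5090 genes, against 7.72% of all genes called higher and 4.93% called lower. The median log2 fold change was 1.12 (range -0.05 to 1.66), against -0.003 over all genes. Both 15 min libraries lay above both log phase libraries in 39 of 41 members, against 26.0% of all genes. The counts are relative to the reads of each library, and with RPF reads alone more mRNA and more ribosomes per mRNA cannot be told apart. The calls rested on single libraries. All or nearly all were lost without replicate 2 of the 15 min group, the library with no rRNA removal named, or without replicate 1 of log phase. Each of these fits leaves 1 library in a group. The member median was then log2 0.95 and 0.99, against -0.02 and 0.01 over all genes. With the replicate number as a block, 36 members were called, while 840 of all 5090 genes were called higher and 752 lower.

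The bridge-like lipid transfer proteins, long hydrophobic channels at membrane contacts, had the largest median rise of the roles (log2 1.51), and 3 of 4 passed the test. The count passing in each role stands against 7.72% of all genes called higher. VPS13, which acts at several organelle contacts, had 542 and 863 CPM at 15 min, against 151 and 296 CPM in log phase. Its log2 fold change was 1.66 ± 0.34 (SE, n = 2 each, edgeR adjusted p = 0.0302). FMP27 had 106 and 206 CPM at 15 min, against 37.9 and 70.4 CPM in log phase (log2 1.51 ± 0.32, edgeR adjusted p = 0.0338). In both genes every starved library was above every log phase library.

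Among cytoskeletal, polarity and nuclear pore members 4 of 6 passed, and all 6 had a positive value (median log2 1.19). DYN1, the dynein heavy chain that pulls the nucleus into the bud, had 89.0 and 136 CPM at 15 min, against 30.4 and 44.7 CPM in log phase (log2 1.58 ± 0.24, edgeR adjusted p = 0.0168). NUM1, its cortical anchor, had 373 and 481 CPM at 15 min, against 137 and 185 CPM in log phase (log2 1.41 ± 0.24, edgeR adjusted p = 0.0201). MLP1, a filament protein of the nuclear basket, had 279 and 265 CPM at 15 min, against 100 and 146 CPM in log phase (log2 1.17 ± 0.26, edgeR adjusted p = 0.0380). The groups of these 3 genes did not overlap. MYO1, the myosin heavy chain of the cytokinetic ring, had 137 and 277 CPM at 15 min, against 95.9 and 120 CPM in log phase, and did not pass (log2 0.90, edgeR adjusted p = 0.0811).

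Of the members in the PIK-related family or among the phosphatidylinositol kinases, 6 of 7 passed. All 7 had a positive value (median log2 1.12). TRA1, the scaffold shared by the SAGA and NuA4 acetyltransferase complexes, had 515 and 916 CPM at 15 min, against 224 and 301 CPM in log phase (log2 1.42 ± 0.29, edgeR adjusted p = 0.0302). MEC1, the DNA damage checkpoint kinase, had 47.0 and 70.9 CPM at 15 min, against 23.9 and 31.5 CPM in log phase (log2 1.08 ± 0.24, edgeR adjusted p = 0.0379). TOR1 and TOR2, the kinases of the nutrient-sensing TOR complexes, rose by 1.12 and 1.04 on the log2 scale (edgeR adjusted p = 0.0244 and 0.0353). STT4, the phosphatidylinositol kinase of the plasma membrane, was the member of this group that did not pass, with 153 and 238 CPM at 15 min, against 111 and 150 CPM in log phase.

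Of the DNA and chromatin members, which include TRA1, MEC1 and TEL1 from the preceding group, 5 of 7 passed. All 7 had a positive value (median log2 1.11). RIF1, which limits telomere length and replication origin firing, had 106 and 134 CPM at 15 min, against 41.7 and 59.6 CPM in log phase (log2 1.25 ± 0.22, edgeR adjusted p = 0.0219). MOT1, which removes the TATA-binding protein from DNA, had 186 and 231 CPM at 15 min, against 84.0 and 110 CPM in log phase (log2 1.11, edgeR adjusted p = 0.0272). POL2, the catalytic subunit of DNA polymerase epsilon, and SEN1, a helicase of transcription termination, did not pass, at log2 0.99 and 0.63.

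The 4 members listed under RNA splicing, RNA helicases and ribosome assembly (REA1, PRP8, BRR2 and SEN1) did not pass, with log2 values of 0.63 to 0.94. SLH1, an RNA helicase that the role lists did not hold, rose, with 119 and 159 CPM at 15 min, against 64.1 and 77.9 CPM in log phase (log2 0.97, edgeR adjusted p = 0.0337). REA1, also named MDN1, is the giant ATPase that remodels precursors of the large ribosomal subunit. It had 720 and 1218 CPM at 15 min, against 469 and 520 CPM in log phase (log2 0.94 ± 0.29, edgeR adjusted p = 0.0808). PRP8 and BRR2, the core protein and helicase of the U5 snRNP, gave log2 0.85 and 0.72 (edgeR adjusted p = 0.0538 and 0.106).

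In the secretory pathway 1 of 4 members passed, although all 4 had a positive value (log2 1.01 to 1.34, median 1.23). SEC16, the scaffold of endoplasmic reticulum exit sites, had 981 and 895 CPM at 15 min, against 404 and 343 CPM in log phase (log2 1.34 ± 0.33, edgeR adjusted p = 0.0458). SEC7, the exchange factor for ARF GTPases at the Golgi, had 816 and 1172 CPM at 15 min, against 467 and 509 CPM in log phase, and did not pass (log2 1.01 ± 0.28, edgeR adjusted p = 0.0601). LAA1, a clathrin adaptor accessory factor, was likewise short of the threshold (log2 1.12, edgeR adjusted p = 0.0672).

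Among the ubiquitin and proteasome members 2 of 4 passed, and all 4 had a positive value (median log2 1.2). ECM29, a proteasome-binding protein, had 282 and 424 CPM at 15 min, against 106 and 157 CPM in log phase (log2 1.42 ± 0.25, edgeR adjusted p = 0.0219). UBR1, the ubiquitin ligase of the N-degron pathway, had 183 and 302 CPM at 15 min, against 101 and 145 CPM in log phase (log2 0.96, edgeR adjusted p = 0.0535). TOM1, a HECT-type ubiquitin ligase, had 418 and 736 CPM at 15 min, against 184 and 325 CPM in log phase (log2 1.17, edgeR adjusted p = 0.0601). UBR1 and TOM1 did not pass, although their groups did not overlap.

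URA2 and FKS1, the members with the most reads, did not pass the test on counts. URA2, the bifunctional enzyme of the opening steps of pyrimidine synthesis, had 3466 and 5435 CPM at 15 min, against 4727 and 4290 CPM in log phase, with overlapping groups (log2 -0.05 ± 0.37, edgeR adjusted p = 0.929). It was the only one of the 41 tested members without a positive value. FKS1 had 2971 and 4527 CPM at 15 min, against 2147 and 2365 CPM in log phase, and did not pass (log2 0.71 ± 0.34, edgeR adjusted p = 0.198). GSC2, which glucose is known to repress, had 321 and 649 CPM at 15 min, against 156 and 261 CPM in log phase (log2 1.19 ± 0.33, edgeR adjusted p = 0.0628). DUR12, the urea amidolyase, had 152 and 235 CPM at 15 min, against 22.9 and 201 CPM in log phase, so its log phase libraries differed more than the groups did (edgeR adjusted p = 0.474).

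**Figure D1:**
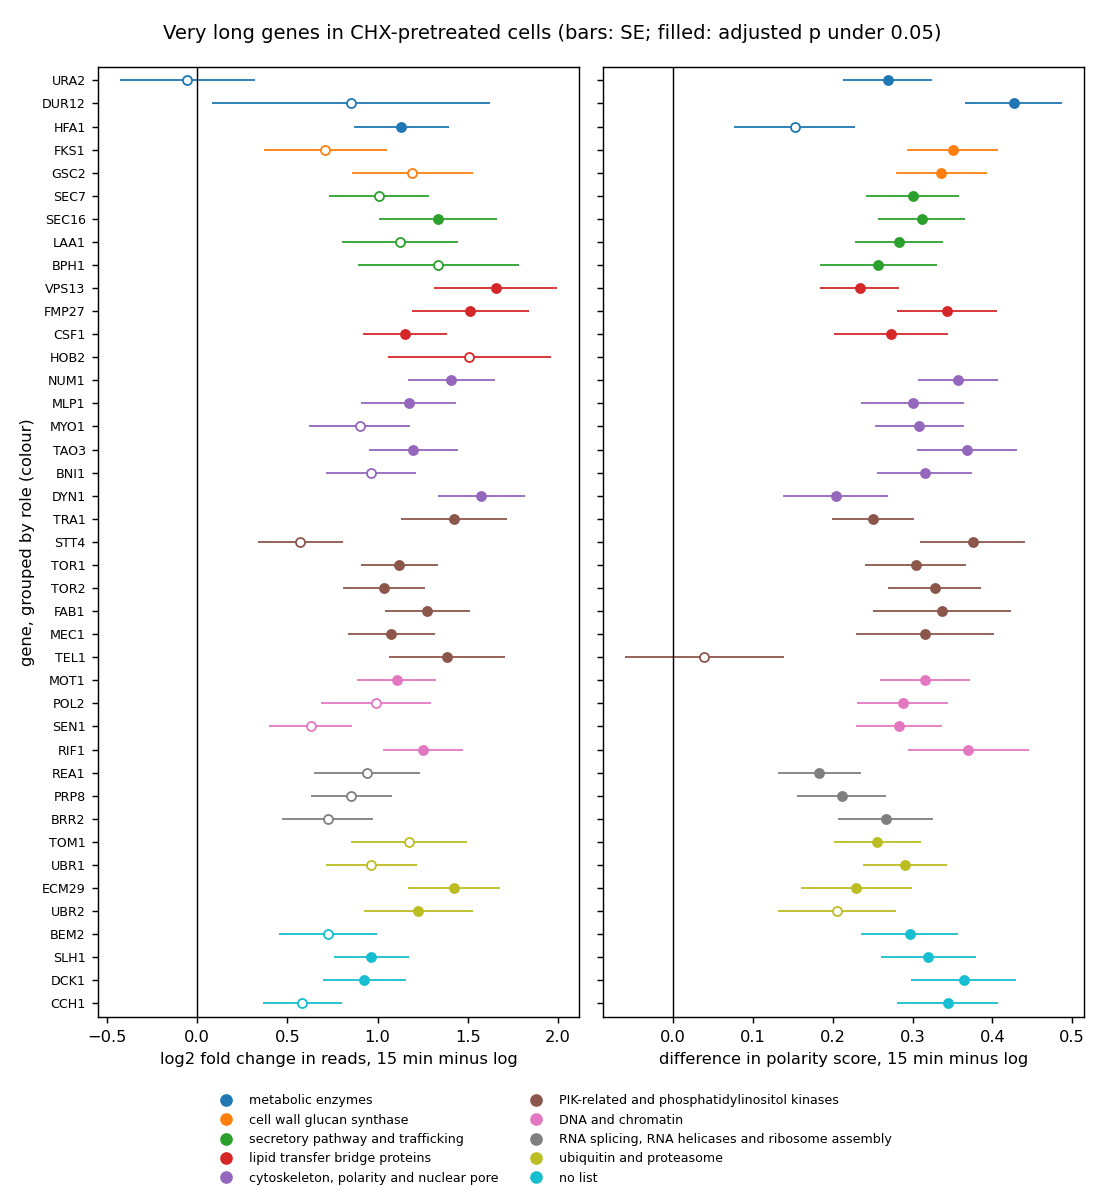
Change of the 41 tested members after 15 min of starvation in the pretreated libraries, coloured by role: the log2 fold change of RPF reads (edgeR) in the left panel and the difference in polarity score (limma, 40 members) in the right panel, with bars of 1 SE and filled points for adjusted p under 0.05. Read changes lie around the member median of 1.12, URA2 lies at -0.05, and the score differences run from 0.04 to 0.43.

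The proteins that work with the members in complexes or pathways are mostly encoded by far shorter genes. Of 96 partner genes listed by complex or pathway, 94 were tested. Of these, 2 were called higher and 2 lower, against 7.72 and 4.93% of all genes. Their median log2 fold change was -0.12, against -0.003 over all genes. Partners of REA1 in the assembly of the large ribosomal subunit had a median of -0.49 over 7 genes (0 called higher, 1 lower), and the pyrimidine synthesis partners of URA2 a median of -0.63 over 7 genes (0 called higher, 1 lower). Partners of TRA1 in SAGA and NuA4 had a median of -0.21 over 29 genes. The proteasome genes listed with RPN4 and RAD6 as partners of ECM29, UBR1 and UBR2 had a median of -0.12 over 19. In both lists 0 were called. TOR complex partners had a median of 0.60 over 9 tested genes, with 1 called higher.

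The change in reads differed by gene length over the whole genome. The median log2 fold change was -0.37 in genes up to 1000 nt, -0.07 between 1000 and 2000 nt, 0.33 between 2000 and 4000 nt and 0.79 between 4000 and 5500 nt. In these 4 classes 137 of 1838, 134 of 2022, 71 of 1044 and 27 of 128 tested genes were called higher, and 205, 45, 1 and 0 were called lower. The 11 long genes left out by the rule had a median of 0.95 with 3 called higher and 0 lower. Within the members the change had a Pearson r of 0.33 and a Spearman rho of 0.37 with length (n = 41 genes, which share the same 4 libraries).

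The second question was where along the long genes the ribosomes were. After 15 min without glucose, the reads of pretreated cells lay further 3′ in nearly every long gene. The median member score was 0.092 and 0.100 at 15 min, against -0.186 and -0.167 in log phase. Over all genes the median was 0.058 and 0.038 at 15 min, against -0.146 and -0.146 in log phase. Among members with more than 25 reads, 35 and 36 had a score over 0 at 15 min, and 0 had one in either log phase library.

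Tested with limma, the score rose in 37 of 40 members and fell in 0, against 41.5% of all 3979 genes called higher and 0.503% called lower. The median difference was 0.300 (range 0.039 to 0.427), against 0.185 over all genes, and both 15 min libraries lay above both log phase libraries in 39 of 40 members, against 71.8% of all genes. When each library was first centred on its own median score, the member median became 0.102 and 0 members (and 0 of all genes) were called. Without replicate 1 of log phase, or without replicate 2, 0 members were called, as were 0 and 1 of all genes. A score from evenly spread reads has an SD of 0.113 at 26 reads, 0.0577 at 100 and 0.0183 at 1000, from counting alone.

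**Figure D2:**
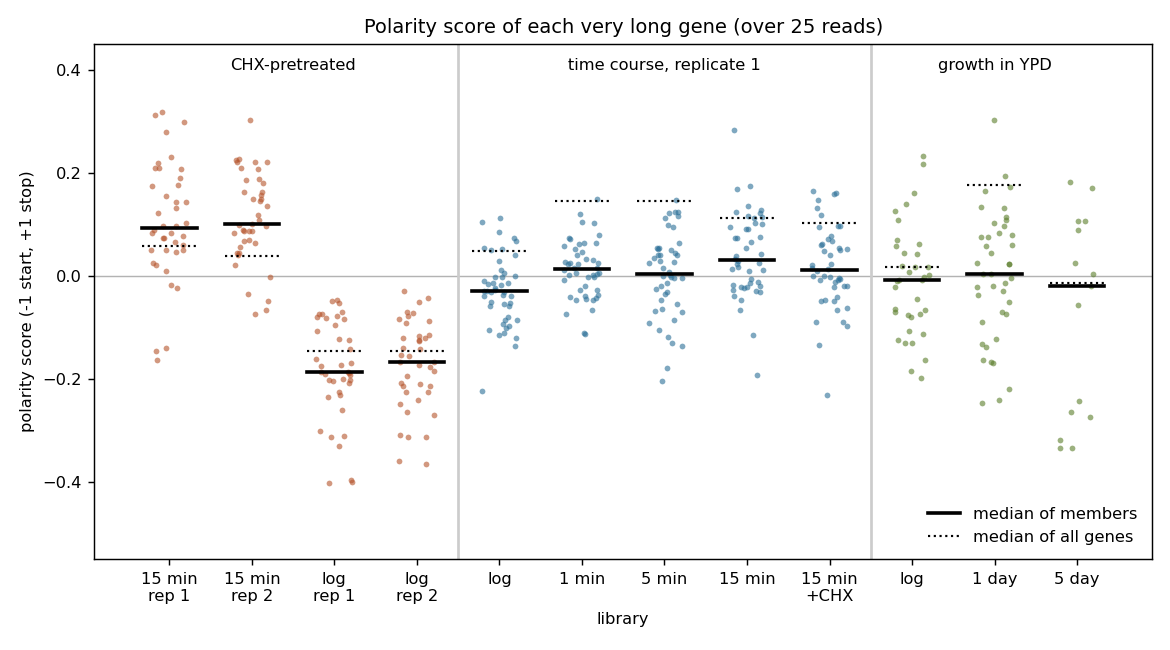
Polarity score (-1 is 5′, 1 is 3′) of each member with more than 25 reads, 1 point per gene, in the pretreated, the deep time course and the YPD libraries, with the medians of the members (solid line) and of all genes (dotted line). In the pretreated libraries the member median was 0.092 and 0.100 at 15 min, against -0.186 and -0.167 in log phase, while it lay between -0.029 and 0.030 in the deep time course libraries.

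Of the 10 members with the most reads per kb, all 10 rose in score, and they include genes whose read counts did not pass. URA2 had scores of 0.191 and 0.221 at 15 min, against -0.0963 and -0.0289 in log phase (difference 0.27 ± 0.055, limma adjusted p = 0.0133). FKS1 had 0.155 and 0.228 at 15 min, against -0.193 and -0.125 in log phase (difference 0.35 ± 0.057, limma adjusted p = 0.0117), and GSC2 had 0.143 and 0.207 at 15 min, against -0.204 and -0.117 in log phase (difference 0.34 ± 0.057, limma adjusted p = 0.0117). For URA2, FKS1 and GSC2 the reads lay on average 5′ of the middle in both log phase libraries and 3′ of it in both starved libraries. The longest gene, REA1, moved less, with 0.0769 and 0.0636 at 15 min, against -0.0737 and -0.153 in log phase (difference 0.18 ± 0.052, limma adjusted p = 0.0300). After centring, the value of REA1 was -0.0151.

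The 3 largest rises among members with at least 50 reads in every library were in DUR12, STT4 and RIF1. DUR12 had 0.0510 and 0.0864 at 15 min, against -0.402 and -0.313 in log phase (difference 0.43 ± 0.060, limma adjusted p = 0.0117). STT4 had 0.210 and 0.0959 at 15 min, against -0.174 and -0.271 in log phase (difference 0.38 ± 0.066, limma adjusted p = 0.0117). RIF1 had 0.318 and 0.164 at 15 min, against -0.0821 and -0.176 in log phase (difference 0.37 ± 0.075, limma adjusted p = 0.0130). NUM1 had scores of 0.312 and 0.303 at 15 min, against -0.0483 and -0.0515 in log phase (difference 0.36 ± 0.050, limma adjusted p = 0.0117). Every repeated window of NUM1 starts 5′ of the gene's middle.

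All 40 tested members had a positive score difference. By role, the score was called higher in 4 of 4 RNA and ribosome assembly members, 4 of 4 secretory members, 6 of 6 cytoskeletal members, 3 of 3 tested lipid transfer members and both glucan synthase subunits. It was called higher in 6 of 7 members of the PIK-related and phosphatidylinositol kinase group and 6 of 7 DNA and chromatin members. It was also called higher in 3 of 4 ubiquitin and proteasome members and 2 of 3 metabolic enzymes. The 3 members that did not pass, named after their values were seen, were TEL1, HFA1 and UBR2. Their reads were few in these libraries: 34 to 66 for TEL1, 63 to 108 for HFA1 and 68 to 150 for UBR2. TEL1, a checkpoint kinase at telomeres, had scores of -0.141 and -0.00140 at 15 min, against -0.0535 and -0.167 in log phase, and was the only one of the 40 members whose groups overlapped. HFA1, the mitochondrial acetyl-CoA carboxylase, had a difference of 0.15 (limma adjusted p = 0.138), and UBR2, a ubiquitin ligase of the proteasome regulator Rpn4, one of 0.21 (limma adjusted p = 0.0585).

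The shift in score was larger in each longer class up to 5500 nt, and the members did not exceed the class before them. The median difference was 0.114 up to 1000 nt, 0.185 between 1000 and 2000 nt, 0.243 between 2000 and 4000 nt, 0.313 between 4000 and 5500 nt and 0.318 in the 11 genes left out. Within the members it was smaller in longer genes (Pearson r -0.44, Spearman rho -0.38, n = 40 genes, which share the same 4 libraries). Just outside the limit, HKR1 had 0.211 and 0.132 at 15 min, against -0.0666 and -0.122 in log phase. Just inside it, MOT1 had 0.174 and 0.156 at 15 min, against -0.186 and -0.115 in log phase. In the 76 partner genes tested, 29 were called higher, against 41.5% of all genes, and the median difference was 0.179, against 0.185 over all genes.

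**Figure D3:**
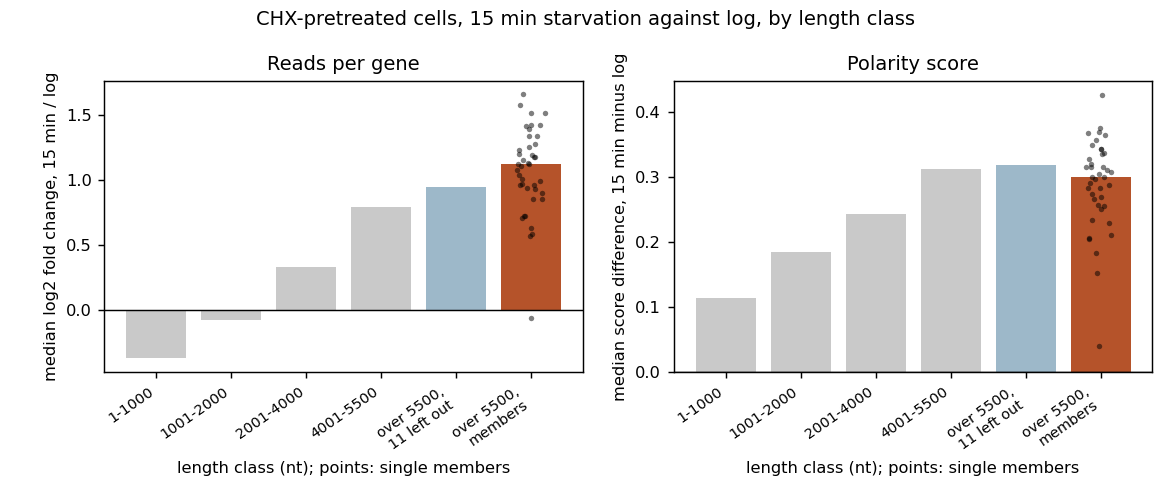
Median change at 15 min of starvation against log phase in the pretreated cells, by length class in nt (bars), as log2 fold change of RPF reads in the left panel and as difference in polarity score in the right panel; points are single members. The read medians run from -0.37 in the shortest class to 1.12 in the members, and the score medians from 0.114 to 0.300, with the members just under the 0.318 of the 11 long genes left out.

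The time course, without pretreatment, asked how soon such changes appeared. In counts, 0 of 46 members were called at 1, 5 or 15 min by edgeR's quasi-likelihood test, and 0 by DESeq2. By edgeR, 1, 2 and 0 members had an unadjusted p under 0.05, against 132, 225 and 236 of all 5255 genes. With the replicate number as a block, URA2 and FKS1 were called higher at 5 min, where 25 of all 5255 genes were called higher. Without the block, 0% of all genes were called higher at 1 and 5 min and 0.0381% at 15 min. The member medians were 0.12, 0.19 and 0.12 on the log2 scale at 1, 5 and 15 min. Both libraries lay above both log phase libraries in 14, 16 and 10 members at 1, 5 and 15 min, against 16.7, 17.3 and 14.8% of all genes.

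FKS1 and URA2 had the most reads of the members in the time course too. FKS1 had 1690 and 1935 CPM in log phase, 2145 and 2577 CPM at 1 min, 2323 and 2773 CPM at 5 min and 2027 and 2228 CPM at 15 min. Its log2 difference from log phase was 0.38, 0.49 and 0.24 at these times, and the 5 min value, the smallest p of the members, had an edgeR adjusted p of 0.607. URA2 had 1343 and 1681 CPM in log phase, 1588 and 2046 CPM at 1 min, 1800 and 1979 CPM at 5 min and 1574 and 1700 CPM at 15 min. The libraries of FKS1 at 1, 5 and 15 min lay above its log phase libraries, while those of URA2 overlapped with log phase at 1 and 15 min. As a share of all reads, the members held 0.782 and 0.945% in log phase, 0.909 and 1.08% at 1 min, 0.972 and 1.12% at 5 min, 0.964% at 10 min, 0.855 and 1.02% at 15 min, 1.43% at 20 min and 1.05% at 30 min.

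In polarity, only 5 members had enough reads in all 8 libraries of the test (URA2, FKS1, SEC7, TOM1 and REA1), and limma called 0 of them at 1, 5 or 15 min. Of the 488 genes tested, 7.17% were called higher at 1 min, 4.30% at 5 min and 0% at 15 min. FKS1 had scores of 0.0403 and 0.0120 in log phase, 0.0639 and 0.0391 at 1 min, 0.123 and 0.114 at 5 min and 0.135 and 0.0635 at 15 min. Its 5 min difference had the smallest p of the 5 (0.0269, limma adjusted p = 0.118). With the replicate number as a block it was called, where 177 of the 488 genes were called higher. URA2 had -0.00931 and 0.00959 in log phase, 0.0156 and -0.0298 at 1 min, 0.0501 and -0.0471 at 5 min and 0.0651 and 0.0307 at 15 min. Both libraries lay above both log phase libraries in 4 of the 5 members at 5 min and in 3 at 15 min, against 63.5 and 49.8% of the genes tested, and at 1 min in 1, against 67.2%. FKS1 was among them at 5 and 15 min and URA2 at 15 min. The steps between 1 and 5 min and between 5 and 15 min gave 0 calls in members and in all genes.

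The deep libraries of replicate 1 let all 46 members be followed, with 1 library per time and no test. In the submitters' key, the deep 15 min library was in another sequencing pool than the deep log phase, 1 and 5 min libraries. In these libraries, 15 min of starvation and pool cannot be told apart. The median member score was -0.029 in log phase, 0.013 at 1 min, 0.004 at 5 min and 0.030 at 15 min, where the median over all genes was 0.048, 0.145, 0.146 and 0.112. The score was above log phase in 35, 39 and 41 of 46 members at 1, 5 and 15 min, against 87.6, 83.6 and 71.1% of 4710 genes. Without the 5 subtelomeric members, whose reads cannot be assigned to single genes, the counts were 31, 35 and 36 of 41. Thus the count of members above log phase was highest at 15 min, and the share of all genes was highest at 1 min. The median member difference from log phase was 0.047 at 1 min, 0.036 at 5 min and 0.062 at 15 min, where all genes gave 0.092, 0.093 and 0.058. At 15 min against 5 min, 31 of 46 members had a higher score (median difference 0.022), against 33.3% of all genes (median difference -0.030). Without the subtelomeric members the count was 27 of 41 (median difference 0.015).

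By length class, the order at 1 min ran from the shortest genes down. At 1 min the median difference from log phase was 0.137, 0.092, 0.055 and 0.031 from the shortest to the longest of the 4 shorter classes. At 15 min it was 0.013, 0.071, 0.089 and 0.080. REA1 had -0.0981 in log phase, -0.0460 at 1 min, -0.0550 at 5 min and -0.0296 at 15 min in these deep libraries, below 0 at every time. NUM1 had 0.0545, 0.0252, 0.0548 and 0.0730 at the same times.

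The matched library with 1 min of CHX at 15 min was set beside the deep 15 min library without it, with no test. In the submitters' key these libraries were in different sequencing pools. In counts, 0 of 46 members were more than 2-fold apart, against 0.307% of all genes over 2-fold higher and 0.134% over 2-fold lower with CHX. The most distant members were YIL177C (log2 0.46) and MEC1 (0.36) on one side and DYN1 (-0.15) and MLP1 (-0.05) on the other. The YIL177C value rested on 85 reads with CHX and 38 without, which cannot be assigned to this gene alone. The score was higher with CHX in 14 of 46 members (median difference -0.016), against 46.0% of all genes. Without the subtelomeric members the count was 14 of 41 (median difference -0.014). DYN1 had 0.133 with CHX and 0.284 without it.

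Side by side, the log phase scores of the long genes were more 5′ in the pretreated libraries than in the time course. In 38 of 40 members with enough reads, both pretreated log phase libraries scored below the deep time course log phase library, as did 3478 of 3948 genes. At 15 min, both pretreated libraries scored above the deep time course library in 29 of the 40 members, against 917 of the 3948 genes, and above the matched CHX library in 31, against 906. The median score of these members was 0.092 and 0.105 in the pretreated 15 min libraries, 0.030 in the time course library and 0.018 in the matched CHX library. The test of the difference between the 15 min effects of the experiments, chosen after seeing the data, called 0 of the 41 members with reads in both experiments in counts and 0 of 5 in polarity. Of all such genes it called 0.619% in counts and 2.45% in polarity. The smallest adjusted p of a member was 0.141 in counts (edgeR) and 0.0570 in polarity (limma). An unadjusted p under 0.05 was found in 16 members in counts and 4 in polarity. The share of all genes at that level was not computed, so these counts have no background to be read against.

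Growth in YPD showed the widest differences among the members, with 1 library per condition and so no test. The members held 0.982% of all reads in log phase, 2.58% at 1 day and 0.866% at 5 days, and URA2 and FKS1 together 42.3, 54.5 and 16.7% of the member reads. At 1 day against log phase, 17 of 40 members with at least 50 reads in both libraries together were over 2-fold higher and 1 was over 2-fold lower, against 31.5% of all genes higher and 24.2% lower. The median log2 ratio was 0.78 in members and 0.18 over all genes.

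The glucan synthase subunits lay on opposite sides of log phase at 1 day. GSC2 had 1853 CPM at 1 day and 146 CPM in log phase, a ratio of 12.7 with a 95% counting interval of 10.3 to 15.7. FKS1 had 1019 CPM at 1 day and 2486 CPM in log phase, a ratio of 0.410 (0.373 to 0.451). Of the reads on both genes, GSC2 held 5.53% in YPD log phase (Wilson 95% interval 4.55 to 6.72), 64.5% at 1 day (62.2 to 66.8) and 62.5% at 5 days (57.5 to 67.2). In SC medium GSC2 was the minor subunit throughout, with 9.75 and 12.5% at 15 min, against 6.78 and 9.96% in log phase, in pretreated cells and 1.61 to 4.81% in the time course. Intervals here cover counting error only.

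URA2 had the highest level of any member in any library at 1 day, 13011 CPM, with 1668 CPM in log phase (ratio 7.80, counting interval 7.32 to 8.31). At 5 days it had 613 CPM, a ratio of 0.0471 to 1 day (0.0389 to 0.0572) and of 0.368 to log phase. The 1 day value of URA2 rested on 7493 reads and its 5 day value on 104. Its score was -0.0106 in log phase, 0.172 at 1 day and 0.107 at 5 days. NUM1 (ratio 5.37), FMP27 (4.40) and UBR1 (3.21) were also higher at 1 day than in log phase, while LAA1 had 118 CPM at 1 day and 153 CPM in log phase.

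**Figure D4:**
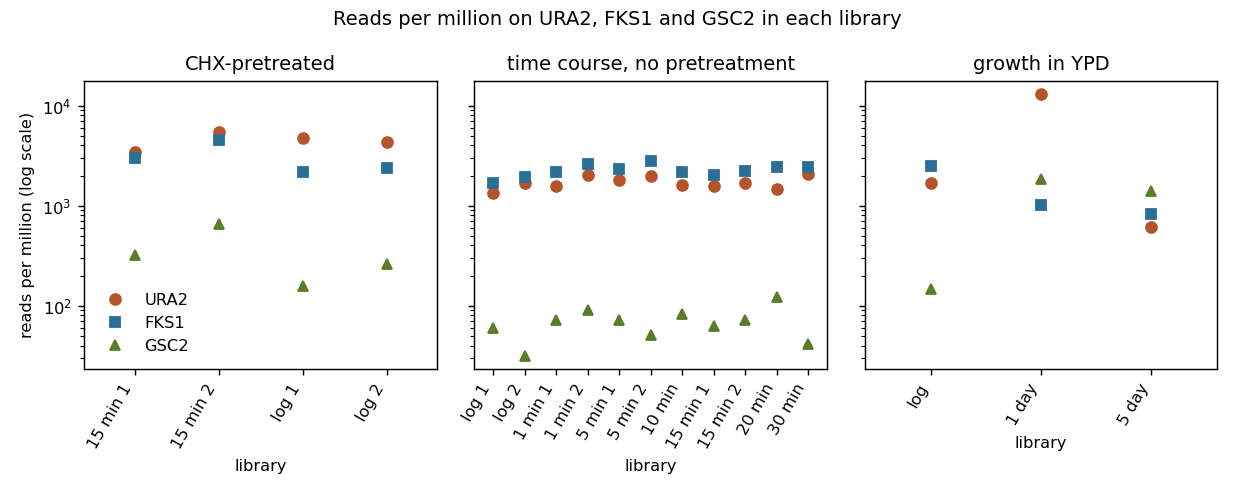
RPF level (CPM, log axis) of URA2, FKS1 and GSC2 in each pretreated, time course and YPD library except the matched CHX library, 1 point per library. GSC2 lies below FKS1 in every library shown except at 1 and 5 days in YPD, where it has 1853 and 1386 CPM, and URA2 reaches 13011 CPM at 1 day.

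At 5 days, 5 of 32 members were over 2-fold higher than in log phase and 7 over 2-fold lower, against 20.9 and 51.5% of all genes. GSC2 had 1386 CPM at 5 days and 146 CPM in log phase (ratio 9.52, counting interval 7.50 to 12.1), and UBR1 525 CPM and 149 CPM (ratio 3.53, 2.65 to 4.71). MYO1 had 23.6 CPM at 5 days, from 4 reads, and 79.7 CPM in log phase (ratio 0.296, 0.107 to 0.818), and FKS1 had 832 CPM and 2486 CPM (ratio 0.334, 0.282 to 0.397). Against 1 day, 0 of 39 members were over 2-fold higher at 5 days and 19 were over 2-fold lower, against 11.2 and 35.2% of all genes. TOM1 and UBR1 had the highest ratios there, 1.49 (1.22 to 1.82) and 1.10 (0.866 to 1.40), and URA2 and MYO1 the lowest, 0.0471 and 0.176.

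Counted by gene, the long genes as a group had no higher score at 1 day, although most genes did. Of 36 members with more than 25 reads in each library, 18 had a higher score at 1 day than in log phase (median difference near 0.00), against 86.2% of all genes (median difference 0.148). FKS1 had 0.165 at 1 day and 0.0421 in log phase, and URA2 had 0.172 and -0.0106. These 2 genes together held 54.5% of the member reads at 1 day. REA1 had -0.220 at 1 day and -0.107 in log phase, and LAA1 had -0.247 and 0.00804. At 5 days 5 of 15 members were above log phase and 3 of 15 above 1 day, against 40.1 and 12.6% of all genes. The median member score was -0.007 in log phase, 0.005 at 1 day and -0.019 at 5 days.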

How the data were processed

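RPF libraries of BY4741 were analysed (19 in all: 4 pretreated, 12 of the time course, 3 in YPD). RNA-seq and glucose readdition samples were not analysed here. The authors deposited, per library, gene lengths, raw RPF read counts and a polarity score for each gene (-1 to 1), with no normalization between libraries. For libraries without pretreatment the authors trimmed with Cutadapt, dropped reads under 17 nt, removed noncoding RNA, aligned with bowtie to R64-1-1, collapsed PCR copies through the molecular identifiers and used HTSeq to count. Pretreated libraries were 28mers counted on R64. Versions of these tools: not given in the sources used here. Genes not listed in a library were set to 0 reads. Deposited lengths exceed the RefSeq R64 span by 2 nt in 5717 of 5762 matched genes, and coordinates and sequences are from RefSeq R64.

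Counts were tested with edgeR 4.0.16 (TMM, filterByExpr, quasi-likelihood test) and polarity scores with limma 3.58.1 (trend, over 25 reads required in each library fitted), in R 4.3.3, each across all genes with Benjamini-Hochberg adjustment and a threshold of 0.05. Pretreated 15 min was compared with log phase (2 libraries each), and 1, 5 and 15 min of the time course with log phase in 1 fit of 8 libraries. Where a condition had 1 library, ratios were given without a test, with a pseudocount of 1 CPM in log2 ratios and none in ratios with intervals. The code was tested on simulated data. Alternatives were DESeq2 1.42.0, no TMM, no filter, other read minimums, centred scores, a replicate block, and leaving out each replicate. Other steps used Python 3.11.15.

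The members and the lists of roles and partners were chosen with earlier results of these data known. Values in full were given for the 10 members with the most CPM per kb, the 3 largest called rises and falls per tested comparison, the 2 most extreme ratios per comparison of single libraries, the leading member of each role, and the genes nearest to the length limit. Other members were named after their values were seen. The replicates of each group differed beyond counting noise (chi-square per degree of freedom 11.4 to 48.4), so none was counted as a duplicate.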

Additional observations from a re-analysis of the deposited data

How the results depend on the processing

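No member was called in the opposite direction in any comparison under any alternative. The 21 members called higher in pretreated counts were 24 with DESeq2, 14 without TMM and 0 to 22 when a library was left out (0 without replicate 2 at 15 min, 1 without replicate 1 of log phase). The 37 called higher in pretreated polarity were 0 with centred scores and 0 to 38 when a library was left out (0 without either log phase replicate). Centring also turned the value of REA1 to -0.0151. The cause was not tested. Of all genes, 432 of 5578 were called higher in pretreated counts with DESeq2 and 316 of 5090 without TMM.

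No source pairs the replicate numbers. With a replicate block, 36 members were called in pretreated counts, 2 in time course counts at 5 min (URA2 and FKS1) and 1 in polarity at 5 min (FKS1). The block called 840 of all 5090 genes higher and 752 lower in pretreated counts. At 5 min of the time course it called 25 of 5255 genes higher in counts and 177 of 488 in polarity. Deviations of libraries with the same number correlated at 0.434 over 4714 genes in the pretreated experiment and at 0.779 to 0.847 in the time course, where depth also goes with the number. A block by sequencing pool in the time course gave 0 calls in members.

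As a share of the reads on genes over 1000 nt, the members held 2.54% at 15 min, against 1.81% in log phase, in pretreated cells. In the time course this share was 1.21% in log phase, 1.30% at 1 min, 1.33% at 5 min, 1.29% at 10 min, 1.23% at 15 min (1.22% in the matched CHX library), 1.91% at 20 min and 1.36% at 30 min, and in YPD 1.50% in log phase, 3.22% at 1 day and 1.30% at 5 days. With only members over 100 reads, the median score, averaged over the libraries of a group, was 0.108 at 15 min in pretreated cells. In the time course it was -0.00688 in log phase, 0.0270 at 5 min and 0.0386 at 15 min, each the mean of a deep library with 42 such members and a shallow one with 2. It was -0.0102 at 20 min from 2 members and 0.0656 at 5 days in YPD from 4. In log phase of the time course the deep library gave -0.0246 and the shallow one 0.0108.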
